A study of Mus musculus with 12 samples.

Results

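The mRNAs of 7 voltage-gated sodium channel genes were followed through synaptosomes and synaptosomal polysomes of mouse striatum. They comprise 4 genes for pore-forming alpha subunits, Scn1a, Scn2a, Scn3a and Scn8a, and 3 genes for auxiliary beta subunits, Scn2b, Scn3b and Scn4b. The genes were chosen by name, with earlier results of these data known, and all 7 were found among the 21492 genes of the deposited table. All 7 passed the filter on low values, and each did so in all 12 libraries.

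Voltage-gated sodium channels open on depolarization and carry the rising phase of the action potential. The alpha subunit is a large membrane protein that forms the whole pore, senses voltage and closes itself again through an intracellular inactivation gate. Beta subunits are small proteins with a single membrane span and an extracellular immunoglobulin-like domain, which change the kinetics and surface level of the channel and bind adhesion molecules. In the brain Scn1a is best known from fast-spiking interneurons, Scn2a from axons of principal neurons, Scn8a from the axon initial segment and nodes of Ranvier, and Scn3a from the developing brain. The products of Scn2b and Scn4b are linked to the pore by a disulfide bond and that of Scn3b is not. Scn4b is known for its high level in the medium spiny neurons of the striatum.

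All mice were male C57BL/6J at postnatal day 70, and the tissue was the striatum. Synaptosomes are pinched-off synaptic endings prepared from homogenized brain, and polysomes are messages carrying several ribosomes. The 4 groups were wild-type input (WT input), Shank3 transgenic input (TG input), wild-type polysome (WT polysome) and Shank3 transgenic polysome (TG polysome), each with 3 libraries numbered 1 to 3. Input is total RNA of the synaptosomes and polysome is RNA of the polysomes taken from them. The sources used here give neither the construct and promoter of the transgene, nor the number of animals behind a library, nor the meaning of the number. Values are the authors' normalized counts, a relative scale. On it the median tested gene differed between fractions by a log2 of 0.03 in both genotypes. A lower value in polysomes is therefore lower relative to the other genes. It is neither a share of the sequenced RNA nor an absolute loss.

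The pore genes are long and closely related. In GENCODE M21 on GRCm38, Scn3a (ENSMUSG00000057182, chr2:65457118-65567627, minus strand), Scn2a (ENSMUSG00000075318, chr2:65620771-65767447, plus strand) and Scn1a (ENSMUSG00000064329, chr2:66270778-66440840, minus strand) form a cluster on chromosome 2. The gap from Scn3a to Scn2a is 53.1 kb and that from Scn2a to Scn1a is 503.3 kb. Scn8a (ENSMUSG00000023033, chr15:100869858-101045938, plus strand) lies apart. Each of the 4 has 27 exons in its longest coding transcript and a coding sequence of 5.841 kb (Scn3a), 5.964 kb (Scn8a), 6.018 kb (Scn2a) or 6.027 kb (Scn1a). All 3 beta genes lie on chromosome 9, on the plus strand. Scn3b (ENSMUSG00000049281) spans chr9:40269217-40291618, Scn2b (ENSMUSG00000070304) spans chr9:45117782-45130070 and Scn4b (ENSMUSG00000046480) spans chr9:45138395-45154152, only 8.3 kb beyond the end of Scn2b. Their coding sequences measure 0.645 kb (Scn2b and Scn3b) and 0.684 kb (Scn4b). The median coding length of the pore genes was 9.29 times that of the beta genes, but the median exonic length, untranslated exons included, was only 2.53 times as long. Coding sequence made up 37.83% to 54.07% of the exonic length of the pore genes and 11.81% to 13.85% of that of the beta genes.

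The pore genes are also alike in sequence, so that some reads must be divided among paralogs. Over whole coding sequences, identity ranged from 72.79% (Scn3a and Scn8a) to 82.28% (Scn1a and Scn2a), against 52.49% to 54.24% among the beta genes. Of the 31-base words in their transcripts, Scn1a shared 7.29% with other genes, Scn2a 9.16% and Scn3a 9.57%, mostly with each other, whereas Scn8a shared 0.49%. The 3 chromosome 2 pore genes are thus the members whose values depend most on how reads were divided. Scn2b shared 2.20% of its words, Scn3b 0.27% and Scn4b none. Antisense genes overlap Scn1a, Scn3a, Scn2b and Scn3b on the opposite strand, but they share 0 exonic bases with them.

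Estimated depth was 60.7 to 85.3 M reads in input and 77.0 to 104 M reads in polysome libraries (M, 1e6), and the lowest member value corresponded to about 6643 reads. These are rough estimates, since read counts could not be recovered from the normalized values. The normalized values summed to 95.5 to 112.6 M per input library and to 62.2 to 74.3 M per polysome library. As a share of its library's sum, a fall in polysomes is thus smaller than given here, or absent. Such shares were not tested. Shank3, the transgene, was higher in TG than in WT in all 6 pairs of same-numbered libraries, by 2.41 to 4.20 times in input and 2.10 to 3.41 times in polysome. Markers of medium spiny neurons were present in every library (15 of 15 listed, none at 0), as were markers of cortical excitatory neurons, interneurons, astrocytes, oligodendrocytes and their precursors, microglia and vessels. Of 5 dopaminergic markers, En1 was not analysed here and the other 4 summed to 404.7 to 714.1 normalized counts per library. Medium spiny and cortical markers differed between library numbers more than between genotypes, as described with Scn4b. Whether replicate libraries stem from different animals is not stated, and the p-values therefore reflect only the spread among these libraries, which may be technical.

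**Figure D1:**
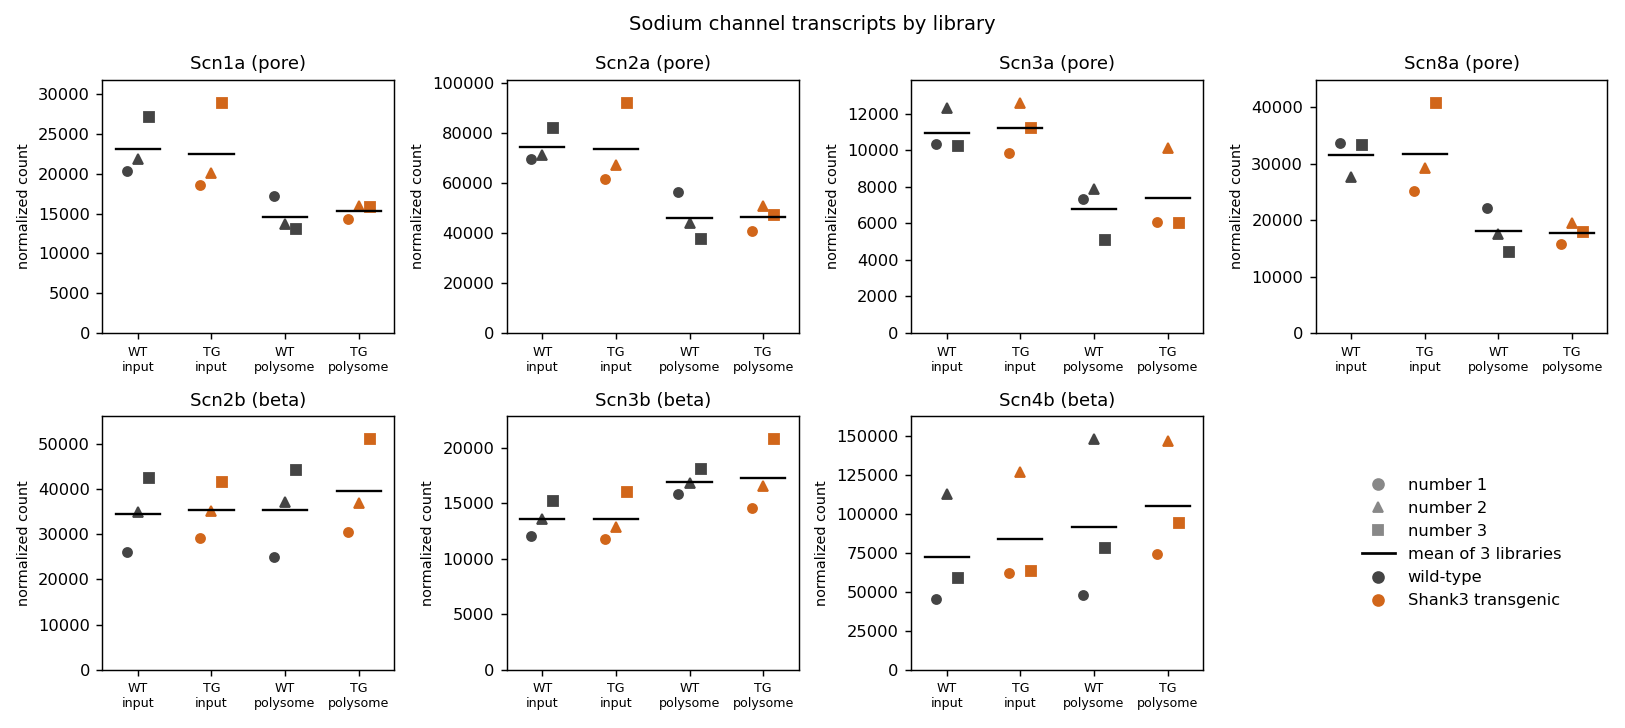
Normalized counts (vertical axis, from 0) of the 4 pore genes (top) and 3 beta genes (bottom) in each library, by group, with the symbol giving the library number, the colour the genotype and the line the mean of 3 libraries. Group means of the pore genes lie lower in polysome than in input, those of Scn3b lie higher, and the number 2 libraries stand far above the others for Scn4b.

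The first comparison asked whether the channel messages in striatal synaptosomes are as abundant in polysomes as in the input RNA. In normalized counts, all 4 pore genes fell in polysomes when the difference was averaged over WT and TG, to between 0.565 and 0.664 of input. These 4 passed the test and none of the 3 beta genes did (limma, Benjamini-Hochberg adjusted over 16962 genes, threshold 0.05). In this comparison 35.6% of all tested genes were called, 18.4% lower and 17.1% higher. The 4 calls of 7 are to be read against the class of gene lengths given further on, in which falls were far more common.

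Scn8a, the pore gene of initial segments and nodes, moved furthest. Its normalized counts were 33702, 27726 and 33407 in WT input (numbers 1 to 3) and 22114, 17548 and 14341 in WT polysome. They were 25265, 29335 and 40821 in TG input and 15786, 19545 and 17864 in TG polysome. Every polysome library lay below every input library of its genotype. The mean log2 difference of polysome minus input was -0.82 ± 0.15 (SE; 95% interval -1.15 to -0.50; adjusted p = 0.00131, limma), and Scn8a passed the test in WT (-0.83 ± 0.21, adjusted p = 0.0239) and in TG (-0.82 ± 0.21, adjusted p = 0.021) as well.

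Scn2a, the most abundant pore gene per kb, was at 69372, 70993 and 82056 in WT input and at 56313, 43850 and 37592 in WT polysome. The TG values were 61568, 67179 and 91996 in input and 40850, 50554 and 47198 in polysome. The groups did not overlap in either genotype. Its mean log2 difference was -0.68 ± 0.15 (adjusted p = 0.00354, limma), a fall to 0.624 of the input level. It was called in WT (-0.71 ± 0.21, adjusted p = 0.0397) and in TG (-0.65 ± 0.21, adjusted p = 0.0448).

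Scn1a, the interneuron-associated pore gene, was at 20288, 21825 and 27107 in WT input and 17149, 13627 and 13078 in WT polysome. In TG it was at 18581, 20049 and 28903 in input and 14344, 15912 and 15834 in polysome. The groups again did not overlap. The mean log2 difference was -0.59 ± 0.14 (adjusted p = 0.00559, limma), with a call in WT (-0.66 ± 0.19, adjusted p = 0.0416) and a value that missed the threshold in TG (-0.52 ± 0.19, adjusted p = 0.08).

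Scn3a, the pore gene known from the developing brain and the lowest of the members per kb, was at 10365, 12310 and 10240 in WT input against 7312, 7893 and 5111 in WT polysome. In TG input it was at 9874, 12604 and 11245 and in TG polysome at 6089, 10155 and 6004. The WT groups did not overlap, while TG polysome number 2 exceeded TG input number 1. Its mean log2 difference was -0.68 ± 0.16 (adjusted p = 0.00594, limma). Taken alone, neither WT (-0.72 ± 0.23, adjusted p = 0.0525) nor TG (-0.64 ± 0.23, adjusted p = 0.0682) passed.

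The beta genes did not follow the pore genes. Scn3b, whose product binds the pore without a disulfide bond, was at 12043, 13630 and 15202 in WT input and at 15882, 16884 and 18072 in WT polysome. The TG values were 11796, 12851 and 16069 in input and 14615, 16586 and 20765 in polysome. In WT every polysome library lay above every input library, and in TG the ranges overlapped. The mean log2 difference of 0.33 ± 0.13 (95% interval 0.06 to 0.61) had an adjusted p of 0.0539 (limma), just short of the threshold.

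Scn2b, a disulfide-linked beta subunit, was at 26155, 34952 and 42444 in WT input and at 24865, 37092 and 44227 in WT polysome. In TG it was at 29147, 35124 and 41643 in input and 30572, 36859 and 50971 in polysome. Fractions overlapped in both genotypes, and the spread within a group was wider than the shift between fractions. The mean log2 difference was 0.08 ± 0.19 (adjusted p = 0.763, limma), and its 95% interval, -0.32 to 0.49, leaves room for a change of either sign.

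Scn4b, the striatal beta subunit, had values of 45312, 112502 and 58693 in WT input and of 48244, 147740 and 78067 in WT polysome. In TG it had 62190, 126876 and 63420 in input and 74125, 146636 and 94292 in polysome. The number 2 library was the highest in every group, and the fractions overlapped. The mean log2 difference was 0.32 ± 0.32 (95% interval -0.36 to 1.01, adjusted p = 0.462, limma).

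Counted by genotype, 3 of 7 members passed in WT, all lower, where 14% of tested genes were called, 8.59% lower and 5.36% higher. In TG 2 of 7 passed, both lower, where 18.1% were called, 9.86% lower and 8.19% higher. Groups without overlap, polysome lower, were found for 4 members in WT (18.5% of tested genes) and 3 in TG (18%), and with polysome higher for Scn3b in WT (17.7% of tested genes). These counts per genotype rested on single libraries. In WT no member passed without WT input number 1 or 3 or without WT polysome number 2 or 3, and 1 passed without WT input number 2, TG input number 2 or TG polysome number 1. In TG no member passed without TG input number 3 or without TG polysome number 1 or 3, while 1 passed without any single WT input library, without TG input number 2 or without WT polysome number 2. Scn8a alone passed, in WT and in TG, with no filter on low values or with only the libraries of that genotype in the fit. With constant variance in place of a trend, the calls of Scn1a in WT (adjusted p = 0.0598, limma) and of Scn2a in TG (adjusted p = 0.0529) were lost. Scn3a passed in WT with a filter at 50 (adjusted p = 0.0465, limma) and without TG polysome number 2 (adjusted p = 0.027) or 3 (adjusted p = 0.0492), and in TG without TG polysome number 2 (adjusted p = 0.0156) or WT polysome number 3 (adjusted p = 0.0494). Without TG polysome number 2, the calls of Scn1a in WT (adjusted p = 0.0507) and of Scn2a in TG (adjusted p = 0.0566) were lost. Averaged over both genotypes, the 4 pore genes passed in each of the 12 fits that left out 1 library. Scn3b passed with them, as higher, without TG input number 3 (adjusted p = 0.0301) or TG polysome number 1 (adjusted p = 0.0429), with TMM scaling (adjusted p = 0.0404) and with a filter at 50 (adjusted p = 0.0478; limma throughout).

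Same-numbered libraries deviated together, so each polysome library was also compared with the input library of its genotype and number. All 4 pore genes were lower in polysome in 6 of 6 pairs, as were 24.1% of all tested genes. Scn3b and Scn4b were higher in 6 of 6 pairs, as were 25% of tested genes, and Scn2b was higher in 5 of 6, the exception being WT number 1 at -0.07. Scn3b was the steadiest, with log2 differences of 0.25 to 0.40. The pore genes varied most, from -0.24 to -1.05 for Scn1a, from -0.30 to -1.13 for Scn2a, from -0.31 to -1.002 for Scn3a and from -0.59 to -1.22 for Scn8a. In both genotypes the number 3 pair held the lowest value of each pore gene.

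With the number within genotype as a block in the fit, the spread shared by a pair was removed and more members passed. In WT all 4 pore genes then passed as lower, with adjusted p from 0.00847 (Scn8a) to 0.0209 (Scn1a), where 29.8% of tested genes were called, 15.9% lower and 13.9% higher. In TG the 4 pore genes passed as lower (adjusted p = 0.007 for Scn8a to 0.0417 for Scn1a, 16.6% of tested genes called lower) and Scn3b as higher (adjusted p = 0.0354, 16.7% called higher, 33.2% called in all). Averaged over genotypes, Scn3b (adjusted p = 0.00592) and Scn4b (adjusted p = 0.0216) passed as higher beside the 4 pore genes, where 49.5% of tested genes were called, 24.8% higher and 24.6% lower, and Scn2b still missed the threshold (adjusted p = 0.433). All of these come from limma.

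**Figure D2:**
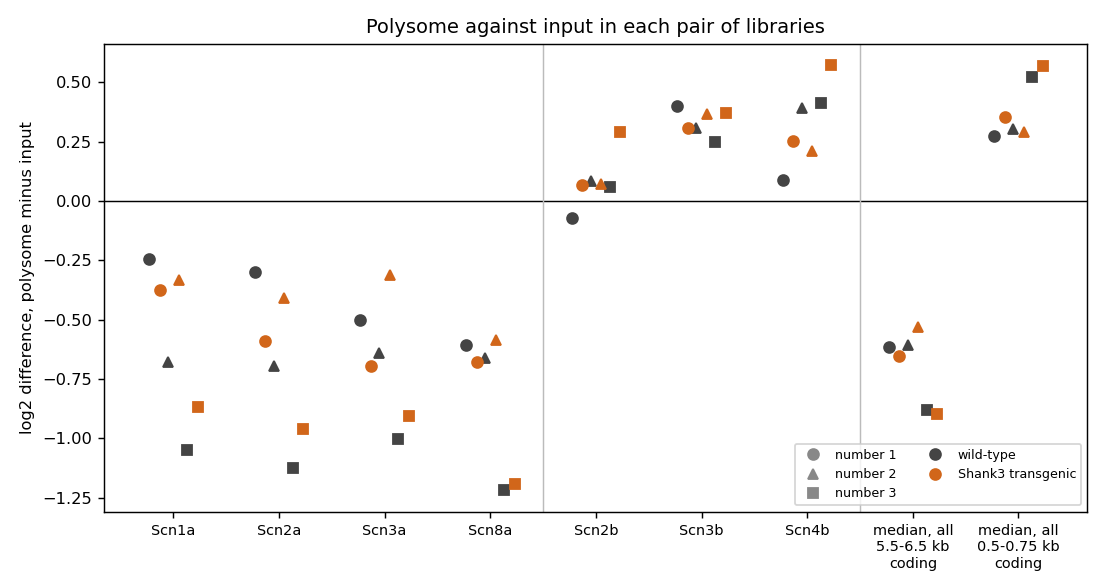
Log2 difference of polysome minus input in each of the 6 pairs of same-numbered libraries, for the 4 pore genes, the 3 beta genes and the median of all tested protein-coding genes of similar coding length. Every pore gene point lies below 0, from -0.24 to -1.22, and every point of Scn3b and Scn4b lies above 0.

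Pore and beta genes were next set against each other as the mean log2 value of the 4 pore genes minus that of the 3 beta genes in each library, without a test. In input this score was -0.18 ± 0.31 (WT) and -0.29 ± 0.23 (TG), and in polysomes it was -1.12 ± 0.61 (WT) and -1.23 ± 0.21 (TG; SD, n = 3). Input and polysome libraries overlapped in WT, where the lowest input value was -0.48 and the highest polysome value -0.43, and they did not overlap in TG. The difference between fractions was -0.94 in WT and -0.94 in TG.

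The length of the coding sequence moved with this contrast across all genes. Protein-coding genes of 5.5 to 6.5 kb coding length, the class of the pore genes, numbered 209 and had a median log2 difference of -0.69 in WT and -0.68 in TG. In that class 41.6% of genes were called lower in WT and 46.9% in TG, and 0 were called higher in either genotype. The class of the beta genes, 0.5 to 0.75 kb, held 1656 genes with a median of 0.37 in WT and 0.40 in TG, and 13.8% and 21.8% of them were called higher. The members' own medians were -0.71 (pore) and 0.30 (beta) in WT and -0.65 and 0.34 in TG, against 0.03 for all tested genes in both genotypes. Each pore gene therefore lay within the interquartile range of its class in both genotypes, -1.003 to -0.42 in WT and -1.001 to -0.35 in TG. Scn3b and Scn4b did too, and Scn2b lay below the lower quartile (0.13) of its class in WT at 0.02.

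The pairs showed the same course. The median of the 5.5 to 6.5 kb class was -0.62, -0.61 and -0.88 in the WT pairs of numbers 1, 2 and 3 and -0.65, -0.53 and -0.90 in the TG pairs. The mean of the pore genes was -0.41, -0.67 and -1.10 in WT and -0.59, -0.41 and -0.98 in TG. Number 3 was lowest in both series in both genotypes. The pore mean lay above the class median in WT number 1 and TG numbers 1 and 2 and below it in the other pairs.

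Coding length and exonic length gave different answers for the pore genes. Subtracting the trend on exonic length over all tested genes left pore values of -0.28 to -0.32 in WT and -0.13 to -0.30 in TG. Subtracting the trend on coding length, an alternative added after the data were seen, left -0.18 for Scn8a and -0.01 to -0.08 for the other 3 in WT. In TG it left -0.14 for Scn8a and 0.02 to 0.15 for the other 3, so that Scn1a, Scn2a and Scn3a no longer lay below 0. For the beta genes in WT it left 0.00 for Scn3b, -0.00 for Scn4b and -0.29 for Scn2b. Length was not an experimental variable here, and its part in the fall of the pore genes was not tested.

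**Figure D3:**
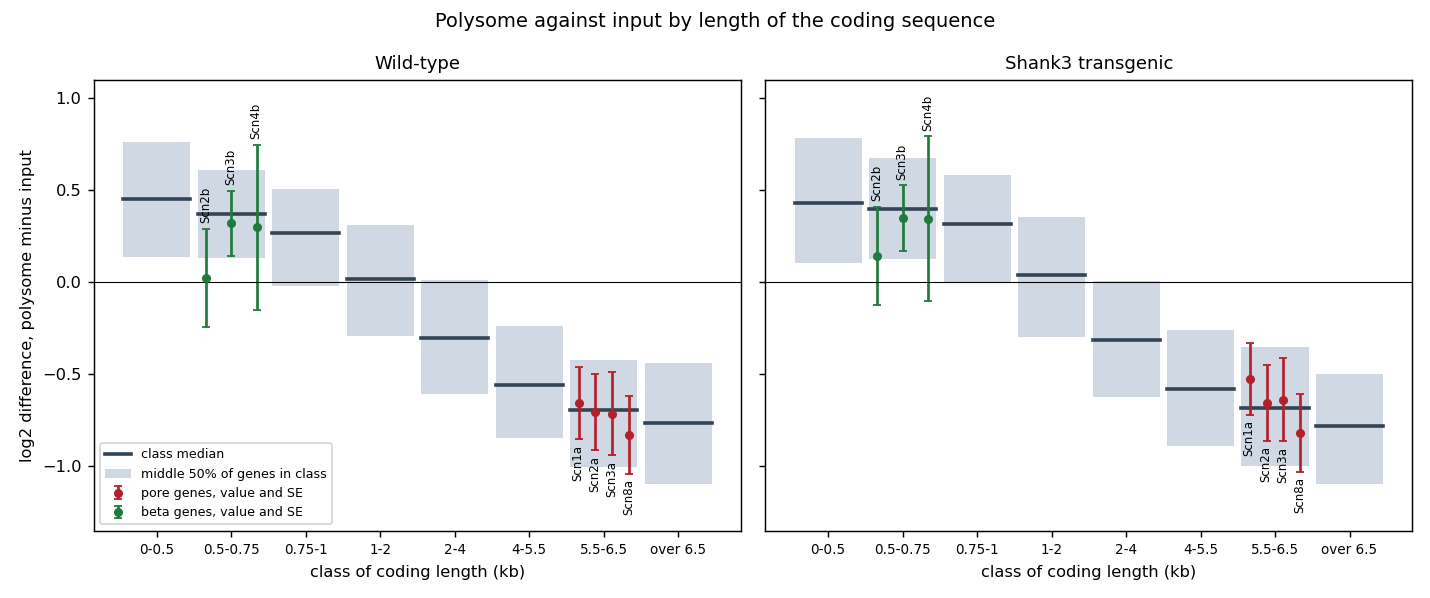
Log2 difference of polysome minus input in WT (left) and TG (right), with bars for the interquartile range and lines for the median of protein-coding genes in 8 classes of coding length, and points for the members (value ± SE, spread sideways within their class). The class median runs from 0.45 in the shortest to -0.76 in the longest class in WT, and the 4 pore genes sit inside the bar of the 5.5 to 6.5 kb class.

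Markers of cell types were read in the same fits. Without the block none of the 15 medium spiny markers was called in WT or in TG, and with it 3 were higher and 4 lower in WT and 5 higher and 5 lower in TG, where 13.9% of tested genes were higher and 15.9% lower in WT and 16.7% and 16.6% in TG. The receptor gene Adora2a (0.78 in WT, blocked adjusted p = 0.00598, limma) and the neuropeptide genes Tac1 (0.76, 0.00912) and Pdyn (0.50, 0.0217) were higher. Pde10a (-0.76, 0.00835), Rgs9 (-0.85, 0.0161), Bcl11b (-0.53, 0.0236) and Meis2 (-0.76, 0.0138) were lower, and these 7 were called in TG in the same directions. The list median, 0.03 in WT and 0.09 in TG, thus averages over markers of both signs. Of 10 interneuron markers none was called without the block in either genotype. With it, Slc5a7, the choline transporter, was lower in WT (-1.01, adjusted p = 0.00637, limma) and TG (-0.96, adjusted p = 0.00596). Slc18a3, the vesicular acetylcholine transporter, was higher in WT (0.60, adjusted p = 0.0197) and TG (0.47, adjusted p = 0.0432), and Pvalb in WT (0.52, adjusted p = 0.0368).

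Of the other cell types, astrocyte markers without the block were lower in 2 of 8 in each genotype, oligodendrocyte precursor markers in 1 of 5 in WT and 2 in TG, and cortical excitatory markers in 1 of 10 in each, where 8.59% (WT) and 9.86% (TG) of tested genes were lower. Oligodendrocyte markers were higher in 1 of 8 in each genotype, microglial markers in 0 of 7 in WT and 2 in TG, and cortical excitatory markers and vessel markers in none in WT and 1 in TG (of 10 and of 6), where 5.36% and 8.19% were higher. With the block, 3 microglial markers were higher in WT and 4 in TG, and 3 and 4 cortical excitatory ones. The summed cortical excitatory markers were 38138 to 88372 normalized counts in WT input and 57449 to 114967 in WT polysome. A sum is weighted to the most abundant markers. The median log2 difference of the 10 markers was -0.10 in WT, with 4 above 0, and 0.06 in TG, with 5 above 0. The part of these cells in the channel results was not tested.

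The other sodium channel genes were read from a list of 8, of which Scn4a, the muscle channel, was too low to test. Averaged over genotypes 2 of 7 fell and none rose, with a median of -0.61, against 0.04 over all tested genes (18.4% lower, 17.1% higher). Scn11a, a channel of sensory neurons, fell by 0.93 on the log2 scale (SE 0.33, adjusted p = 0.0434, limma), at 26.9 to 51.6 normalized counts in WT input and 9.23 to 15.9 in WT polysome, and was called in WT (-1.65 ± 0.47, adjusted p = 0.0356) and not in TG (-0.22 ± 0.47, adjusted p = 0.789). Nalcn, the sodium leak channel, fell by 0.61 (SE 0.14, adjusted p = 0.00537) and had the smallest p of the list in TG (adjusted p = 0.0531), where none passed. With the block, 5 of 7 fell in WT and 4 in TG, where 15.9% and 16.6% of tested genes were lower.

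Genes of the axon initial segment and node, where sodium channels are anchored, had a median of -0.22. Averaged over genotypes, 3 of 15 fell, close to the 18.4% of all tested genes that were lower, and 1 rose, where 17.1% were higher. Sptbn1, a beta spectrin of the membrane skeleton, fell furthest (-0.82 ± 0.11, adjusted p = 0.00026, limma) and was called in WT (-0.81, adjusted p = 0.00813) and TG (-0.83, adjusted p = 0.00616). The other falls were Ank2 and Sptbn4, an ankyrin and a spectrin with coding lengths of 11.78 and 7.68 kb. Kcnq3, a potassium channel of the initial segment with a coding length of 2.62 kb, rose (0.58 ± 0.19, adjusted p = 0.0297). It went against its length class, since genes of 2 to 4 kb coding length had medians of -0.30 in WT and -0.31 in TG. Ank3, the ankyrin that holds sodium channels at the initial segment, has a coding length of 8.61 kb. It was at -0.35 ± 0.18 and did not pass (adjusted p = 0.139), but passed with the block (adjusted p = 0.0102). With the block, 7 of 15 fell and 3 rose, where 24.6% of tested genes were lower and 24.8% higher.

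Genes whose products bind or modify the channels were read from a list of 22 regulators, with a median of 0.02. Averaged over genotypes, 6 rose, where 17.1% of all tested genes were higher, and 4 fell, which is close to the 18.4% that were lower. S100a10, an annexin partner that aids surface delivery of channels, rose most (0.87 ± 0.15, adjusted p = 0.00114, limma), and in each genotype as well (0.92 in WT and 0.83 in TG). Prkca, a protein kinase C, fell most (-0.97 ± 0.17, adjusted p = 0.000911), by 0.91 in WT and 1.03 in TG. Fgf13, a fibroblast growth factor homologue that binds the channel tail, rose (0.62 ± 0.10, adjusted p = 0.000596), and Nedd4, a ubiquitin ligase, fell (-0.77 ± 0.12, adjusted p = 0.000559).

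Secretases cleave beta subunits. Averaged over genotypes, 4 of 8 such genes rose and none fell, where 17.1% of all tested genes were higher and 18.4% lower, and their median was 0.32. Bace2, a beta-site protease, rose most (1.42 ± 0.18, adjusted p = 0.000218, limma), from 178.6 to 350 normalized counts in WT input to 510.8 to 555 in WT polysome. Aph1a, a subunit of gamma-secretase, rose by 1.08 ± 0.15 (adjusted p = 0.000291), and Bace1, the main brain beta-secretase, by 0.41 ± 0.11 (adjusted p = 0.0115). Atp1b2, a beta subunit of the sodium pump, which restores the gradient that the channels use, rose as well (0.77 ± 0.11, adjusted p = 0.000392). Its coding length is 0.87 kb. The pump beta genes of similar coding length, Atp1b1 (0.91 kb, 0.01) and Atp1b3 (0.83 kb, -0.17), were not called.

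Levels were compared between members per kb of exonic length. In WT input the order was Scn4b (14486 ± 7139 normalized counts per kb), Scn2b (7413 ± 1751), Scn2a (5823 ± 542), Scn3b (2495 ± 289), Scn1a (2070 ± 321), Scn8a (2005 ± 214) and Scn3a (881 ± 93.1; SD, n = 3). The ranges of neighbours overlapped except between Scn2a and Scn3b and between Scn8a and Scn3a. TG input had the same order and these gaps, with a further gap between Scn4b and Scn2b. In WT polysome the order stayed the same, but Scn2a, at 3607 ± 749, lay near Scn3b at 3103 ± 201, with overlapping ranges. Scn4b was at 18336 ± 10249 per kb there and at 21079 ± 7512 in TG polysome. With the length of the longest coding transcript in place of the exonic length, Scn2a stood above Scn2b and Scn8a above Scn1a in input, so those ranks depend on the length used.

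Among the pore genes themselves the proportions moved little. Scn2a made up 54.0% ± 0.691 of the summed pore level per kb in WT input and 53.9% ± 0.736 in TG input (SD, n = 3). Its share was 54.5% ± 0.996 in WT and 54.0% ± 0.904 in TG polysomes. Scn1a made up 18.8% to 20.6% in the 4 group means and Scn3a 8.23% to 8.75%. Scn8a went from 18.6% ± 1.98 to 17.2% ± 0.481 in WT, with overlapping ranges, and from 18.7% ± 0.721 to 16.7% ± 0.0859 in TG, without overlap. These shares were not tested.

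Scn4b varied between library numbers together with the medium spiny neurons. In number 2 it lay 1.07 above the mean of the other numbers on the log2 scale in input and 1.04 above in polysome, and the median of the 15 medium spiny markers lay 0.92 above in both. The 15 markers summed to 454834, 507662, 504627 and 543092 normalized counts in the number 2 libraries of input (WT, TG) and polysome (WT, TG). In the other 8 libraries they summed to 216766 to 306970, without overlap. Oligodendrocyte markers were also higher in number 2, by 0.52 in input and 0.58 in polysome, and cortical excitatory markers lower, by 0.67 and 0.65. Scn3a was 0.26 and 0.56 higher in number 2, and the other 5 members differed by -0.20 to 0.10. In bulk RNA a different number of cells of a type and a different amount of RNA per cell cannot be told apart, and the share of medium spiny RNA in the Scn4b level was not tested.

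**Figure D4:**
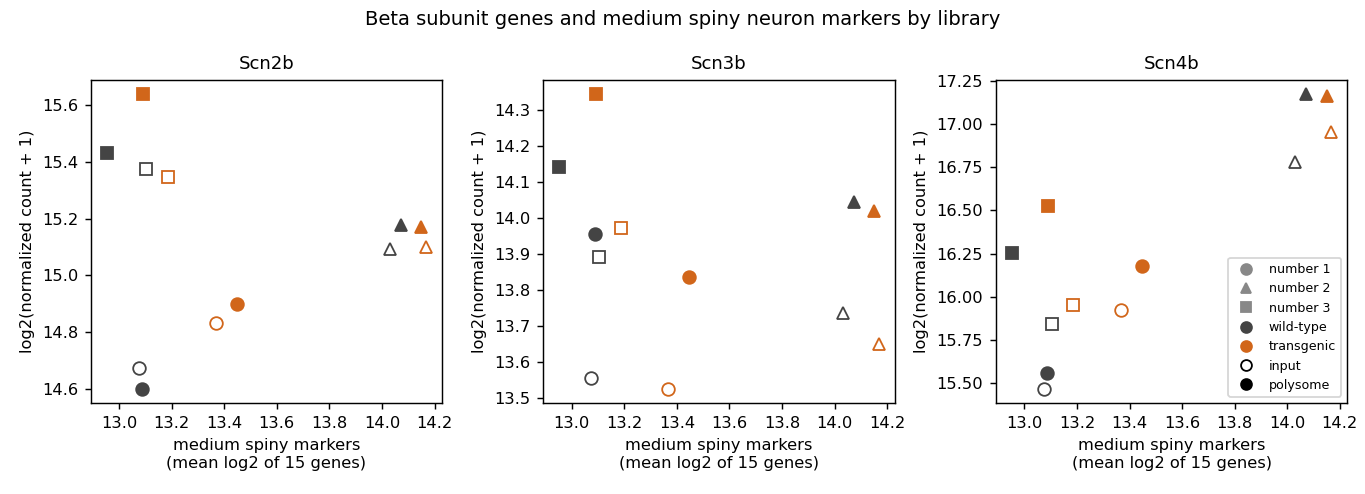
Log2 of the normalized count plus 1 of Scn2b, Scn3b and Scn4b (vertical) against the mean log2 level of the 15 medium spiny markers (horizontal) in the 12 libraries, with symbols for the number, colours for the genotype and filled symbols for polysome. The 4 number 2 libraries lie far right in each panel and at the top only for Scn4b.

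The second comparison asked whether the Shank3 transgene changes these messages. None of the 7 members differed between TG and WT in input or in polysome (adjusted p = 1 for each, limma), and 0% of tested genes were called in either fraction, with 80 of 16341 genes in input and 53 of 16312 in polysome at an unadjusted p under 0.05. With the number as a block no member passed either, and 0.00613% of tested genes, 1 gene, was called in polysome. The log2 differences of the 4 pore genes, TG minus WT, ran from -0.05 to 0.03 in input and from -0.00 to 0.11 in polysome. Scn2a, for example, was at -0.03 ± 0.20 in input (95% interval -0.49 to 0.43) and 0.02 ± 0.21 in polysome (-0.47 to 0.51). Scn3b was at -0.01 ± 0.17 and 0.02 ± 0.18. Over the 4 pore genes the 95% intervals reached from -0.54 to 0.46 in input and from -0.48 to 0.70 in polysome, and a missed threshold does not show that the genotypes were equal.

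Scn4b had the largest genotype difference among the members, 0.25 ± 0.39 in input and 0.29 ± 0.42 in polysome, with 95% intervals of -0.66 to 1.16 and -0.68 to 1.27. By number it was 0.46, 0.17 and 0.11 in input and 0.62, -0.01 and 0.27 in polysome. The median of the medium spiny markers moved with it, at 0.18 in input and 0.20 in polysome, with 14 and 15 of 15 markers above 0 and none called. All 4 pore genes were below 0 in number 1 and above 0 in number 3 in both fractions. The widest were those of Scn8a in input (-0.42 in number 1 and 0.29 in number 3), which was at -0.49 and 0.32 in polysome. Scn2a was at -0.17 and 0.16 in input and at -0.46 and 0.33 in polysome.

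The last comparison asked whether the transgene alters the split between polysome and input, by the interaction of genotype and fraction. None of the 7 members passed (adjusted p = 1 for each, limma), and 0% of the 16962 tested genes did, with 94 at an unadjusted p under 0.05. The interaction ran from 0.01 ± 0.30 for Scn8a to 0.13 ± 0.28 for Scn1a. For Scn2a the 95% interval was -0.58 to 0.69, which spans differences as large as the fall in polysomes itself. The call of Scn1a in WT and not in TG is therefore no evidence that the genotypes differ.

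The profiles of the members over the 12 libraries were described by Pearson's r, without p, since the libraries share fractions, numbers and normalization. Scn2a and Scn8a (r = 0.98), Scn1a and Scn2a (0.98) and Scn1a and Scn8a (0.95) were the most alike, and Scn3a followed them less closely (0.75 to 0.83). Each beta gene was weakly or inversely related to the pore genes, from -0.64 (Scn3a and Scn3b) to 0.11 (Scn3a and Scn4b). Scn2b and Scn3b were related at 0.70, and Scn2b and Scn4b, which are neighbours on chromosome 9, at 0.42. Among 14311 genes whose mean log2 level reached 5, the closest to Scn8a were Cacna1e (0.99), Slc2a1 (0.99) and Scn2a (0.98). Those closest to Scn2a were Cyp4v3, Grm7 and Scn8a, to Scn1a Fstl5, Scn2a and Itgam, and to Scn3a Cwc22, Fam120c and Diaph2, all between 0.98 and 0.99. For Scn2b they were Ptch1 (0.97), Gpr27 and Lynx1 (0.95), for Scn3b Nsg2 (0.97), Brinp1 and Galnt1 (0.96), and for Scn4b Tspear, Sowaha and Gdnf (0.97 each).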

How the data were processed

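The deposited signal is a normalized, estimated gene count in each of 12 libraries, made by the authors, not raw reads. The submitters' processing notes name Salmon 1.1.0, DESeq2 1.26.0, R 3.6.2 and the build GRCm38. Per the labels' protocols, a stranded total RNA kit was used. Transcript index, strand setting and normalization model: not given in the sources used here. Of values up to 20 estimated reads, 30.4% to 45.9% were whole to a tolerance of 0.1, so read counts could not be recovered and no count model was run. No pair of libraries was identical (correlations 0.937 to 0.989).

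Identifiers were matched to GENCODE M21 (21465 of 21492), which also gave lengths, coordinates and sequences. Comparisons were fitted with limma 3.58.1 in R 4.3.3, with a variance trend, on log2(value + 1), for genes with at least 3 fitted libraries at 10 or more. This scale slightly understates the change of low genes. P-values were adjusted by Benjamini-Hochberg over all tested genes (threshold 0.05). Polysome against input and the interaction came from all 12 libraries, and genotype from 6. The fits were tested on simulated data.

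Between groups, the deviations of 2 libraries from their group means had correlations of 0.24 to 0.55 where the number was the same (18 pairs) and of -0.41 to -0.00 where it was not (36 pairs). The numbers were therefore taken to pair the libraries, from these values and the shared numbers, and blocked fits were run beside the unblocked ones.

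Members, gene lists and tests were chosen with earlier results of these data known. The text names all 7 members, and from each list the called genes that rose and fell most, or, with no call, the gene of smallest p. Ank2, Ank3, Sptbn4, Fgf13, Nedd4, Aph1a, Bace1, Atp1b1, Atp1b3 and the named cell type markers were added after their values were seen. A few results are not reported here. Likeness lists hold the 3 genes with the highest r. Alternatives were TMM scaling, other filters (none, 50) and pseudocounts (0.5, 10), constant variance, fits of other library sets, the block, length trends (loess, span 0.5) and each library left out.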

Additional observations from a re-analysis of the deposited data

How the results depend on the processing

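Averaged over WT and TG, the 4 pore genes were lower in polysome and passed in every fit with a test, and after removal of the coding length trend 0.081 was left for Scn1a and, in TG, 0.023 for Scn2a. The counts of all genes called depended on single libraries and on the block. With a replicate block, 5052 genes were called in WT, 5638 in TG and 1 in TG against WT in polysome, and beyond those given in the report it changed no member's call. With only the TG libraries in the fit, 1700 were called in TG. Leaving out 1 library at a time gave 648 to 2566 in WT (lowest without WT input number 3), 1205 to 3263 in TG (lowest without TG polysome number 3), 4975 to 6078 for the mean, 0 to 2 for the interaction and 0 to 1 for genotype in input and in polysome. The pore minus beta difference then ran from -1.11 to -0.84. Values that never passed without the block changed sign when 1 library was left out. For polysome against input these were Scn2b (-0.16 to 0.26 in WT, -0.057 to 0.31 in TG, -0.017 to 0.20 for the mean) and Scn4b in WT (-0.12 to 0.68). For TG against WT in input the ranges were -0.25 to 0.072 (Scn1a), -0.20 to 0.089 (Scn2a), -0.053 to 0.12 (Scn3a), -0.21 to 0.14 (Scn8a), -0.14 to 0.21 (Scn2b), -0.14 to 0.083 (Scn3b) and -0.091 to 0.62 (Scn4b). In polysome they were -0.11 to 0.18 (Scn2a), -0.14 to 0.24 (Scn3a), -0.16 to 0.16 (Scn8a), -0.070 to 0.35 (Scn2b), -0.12 to 0.13 (Scn3b) and -0.091 to 0.72 (Scn4b). For the interaction they were -0.082 to 0.22 (Scn2a), -0.17 to 0.21 (Scn3a), -0.14 to 0.21 (Scn8a), -0.12 to 0.31 (Scn2b), -0.11 to 0.16 (Scn3b) and -0.34 to 0.47 (Scn4b). Apart from the construction of the length alternatives, the cause of these shifts was not tested. By the rough depth estimate the lowest member value stood for about 6643 reads, and an effect of depth was not tested.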
